A study of Homo sapiens with 3 samples.

Results

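The 7 CDK inhibitor genes of the INK4 and CIP/KIP families, *CDKN1A*, *CDKN1B*, *CDKN1C*, *CDKN2A*, *CDKN2B*, *CDKN2C* and *CDKN2D*, were examined in renal cancer cells after RBCK1 depletion. They were taken by gene symbol from a table of 44591 genes, and all 7 were found. Caki-1, a human renal carcinoma line that expresses wild-type p53 per the methods, was transfected with si-Control, a non-targeting siRNA, or with si-RBCK1 #1 or si-RBCK1 #2, which target RBCK1 (also called HOIL-1). RNA was collected after 48 h, and the general siRNA concentration in the methods is 10 nmol/L. Each condition had 1 library, so replicate error is unknown, no p-value is given, and both ratios of a gene share the same si-Control library. Levels are RPKM, which are reads scaled to gene length and to the depth of the library. A log2 ratio compares log2(RPKM + 1) with si-Control, and the pseudocount makes ratios of weakly expressed genes too small.

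Cyclin-dependent kinases drive the cell cycle when they are bound to cyclins, and the CDK inhibitors hold them back. The CIP/KIP proteins p21 (*CDKN1A*), p27 (*CDKN1B*) and p57 (*CDKN1C*) bind cyclin-CDK complexes, those of CDK2 in particular. The INK4 proteins p16 (*CDKN2A*), p15 (*CDKN2B*), p18 (*CDKN2C*) and p19 (*CDKN2D*) bind CDK4 and CDK6 and keep cyclin D away from them, so that the retinoblastoma protein stays active and holds E2F factors in check. *CDKN1A* is a classical transcriptional target of p53, which is why the family bears on the question of the study, the effect of RBCK1 on p53 signaling.

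The sense strands of the siRNAs are shown because they define the treated conditions, with the bases that pair with the seed of the guide (guide bases 2 to 8) in capitals.
si-RBCK1 #1: ggtgcaccttcATCAACAa
si-RBCK1 #2: ggattaccagcGATTTCTa

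The seed of si-RBCK1 #1 had no match in the longest protein-coding transcript (GENCODE v29) of the 7 CDK inhibitor genes. That of si-RBCK1 #2 had a match in 2 of the 7, *CDKN1A* and *CDKN1C*, both within the longest open reading frame. Over 19669 genes searched in the same way, 22.3% held a match to the seed of si-RBCK1 #1 and 25.9% to that of si-RBCK1 #2. The count of 2 in 7 is near that share, and an effect of the matches was not tested. Both genes differed from si-Control with each siRNA, *CDKN1A* higher and *CDKN1C* lower, and the sizes differed between the siRNAs (given below). The matched stretches are shown in capitals with the bases around them. They run from bases 680 to 686 of the *CDKN1A* transcript and from bases 1102 to 1108 of the *CDKN1C* transcript.
CDKN1A site: ccagcatgacaGATTTCTa
CDKN1C site: ctctgatctccGATTTCTt

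Depth was close to even, with 36344428 to 40442939 reads per library recovered as the totals behind the RPKM values. *RBCK1* (chr20:388694-412783, plus strand) had 33.3 RPKM in the control, and si-RBCK1 #1 left 9.97 RPKM (29.9%) and si-RBCK1 #2 left 12.3 RPKM (36.8%). Of 7 renal markers, 4 passed a mean of 1 RPKM (*PAX8*, *KRT8*, *KRT18* and *VIM*), while *PAX2*, *CDH16* and *CA9*, which marks clear cell carcinoma with a hypoxic response, were below 1 RPKM in every library. The 7 summed to 950 RPKM with si-Control and to 1910 and 1909 RPKM with the siRNAs. Most of that sum was *VIM*, at 664, 1512 and 1392 RPKM. *KRT8* (65.6, 172 and 238 RPKM) and *KRT18* (95.3, 142 and 172 RPKM) were also higher with both siRNAs. *PAX8*, a renal lineage marker, was lower with both (124, 82.5 and 107 RPKM). The bearing of this on the CDK inhibitor values was not tested. All 8 markers of blood, endothelium and fibroblasts were below 1 RPKM, with a summed level between 0.942 and 1.25 RPKM.

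The family was dominated by *CDKN1A* in every library, and 5 of the 7 genes were expressed above the limit used for testing, a mean of 1 RPKM. With si-Control the order was *CDKN1A*, *CDKN1B*, *CDKN1C*, *CDKN2C*, *CDKN2D*, *CDKN2A* and *CDKN2B*. *CDKN1A* made up 78.2% of the summed level of 149 RPKM. Among 19232 protein-coding genes, the si-Control level of *CDKN1A* was at percentile 97.7, that of *CDKN1B* at 81.6, that of *CDKN1C* at 72.1, that of *CDKN2C* at 54.4 and that of *CDKN2D* at 46.1. All neighbouring pairs among the 5 tested genes had counting intervals that did not overlap with si-Control. Without *CDKN1A*, the family summed to 32.6 RPKM in the control library, against 28.3 after si-RBCK1 #1 and 31.1 after si-RBCK1 #2. With both siRNAs *CDKN2C* stood above *CDKN1C*, the reverse of their order in the control.

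**Figure D1:**
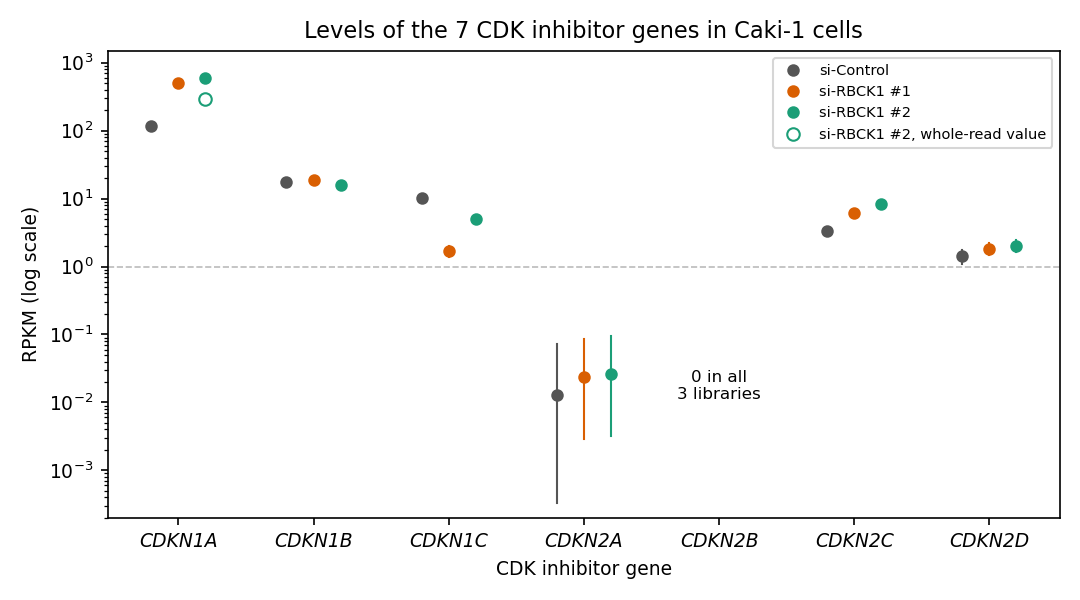
The level of each gene (RPKM, log scale) is plotted for si-Control (grey), si-RBCK1 #1 (orange) and si-RBCK1 #2 (green), with 95% exact Poisson intervals of the reads and a dashed line at 1 RPKM. The open circle is the whole-read value of *CDKN1A* (293 RPKM), below the listed 593 RPKM but above si-Control, and *CDKN2A* lies below 0.03 RPKM in each library.

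*CDKN1A* was higher with both siRNAs and had the highest log2 ratio of the family with each, though 1 of its listed values is in doubt. In the table's own coordinates it maps to chr6:36644237-36655116 (plus strand) (hg19, per the labels). The table lists 117 RPKM for the control library, 504 for si-RBCK1 #1 and 593 for si-RBCK1 #2. Both treated values stand above the control, and as listed that of si-RBCK1 #2 is the higher. The listed log2 ratios were 2.10 and 2.34, at percentiles 99.8 and 99.9 of the 12403 genes tested.

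The listed si-RBCK1 #2 cell of *CDKN1A* does not give the fold change of its own row. It does not give the authors' mean column either: the listed si-RBCK1 values average 549 RPKM, and the authors' mean is 559 RPKM. With the gene length that makes the other 2 libraries whole (2637 nt), the si-Control value is 11353 reads and the si-RBCK1 #1 value is 53757 reads. The listed si-RBCK1 #2 value comes to 56863.077 reads, which is not whole, and the value behind the mean column, 613 RPKM, comes to 58779.882. When the decimals were kept and the whole part was varied, 3 of 1000 values gave whole reads, and 1 of these, 293 RPKM (28111 reads), also gives the row's own fold change. It is 300 RPKM below the listed value. The same check failed in 16 of 23749 rows that hold a comparison, and among the 5 tested CDK inhibitor genes it failed in *CDKN1A* alone.

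The whole-read value changes the order of the siRNAs but not the direction from si-Control. With 293 RPKM the log2 ratio of *CDKN1A* with si-RBCK1 #2 was 1.32 rather than 2.34, at percentile 99.1 rather than 99.9. On reads alone, without a pseudocount, *CDKN1A* was higher by a log2 ratio of 2.11 with si-RBCK1 #1 (95% counting interval 2.08 to 2.14) and of 1.33 with si-RBCK1 #2 (1.30 to 1.36). The latter interval lies within that of *CDKN2C* with the same siRNA (1.13 to 1.52), so on reads the ratios of the 2 genes with si-RBCK1 #2 could not be ordered. The 2 siRNAs then differed for *CDKN1A* by -0.78 (si-RBCK1 #2 over #1, interval -0.80 to -0.76). The share of *CDKN1A* in the family was 94.7% with si-RBCK1 #1 and, by the whole-read value, 90.4% with si-RBCK1 #2. An antisense RNA, *DINO*, overlaps *CDKN1A* and was at 0, 0.156 and 0.174 RPKM in the order si-Control, si-RBCK1 #1 and si-RBCK1 #2. The strand setting of the authors' counting is not given in the sources used here, and these levels are far below those of *CDKN1A*.

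*CDKN1B*, which encodes p27, an inhibitor regulated largely through protein turnover, was close to its control level. It maps to chr12:12870204-12875317 (plus strand). The control library held 1647 reads of it (17.7 RPKM), against 1899 after si-RBCK1 #1 (18.6 RPKM) and 1453 after si-RBCK1 #2 (15.8 RPKM). Log2 ratios were 0.07 and -0.15, at percentiles 54.6 and 33.2. On reads, the interval with si-RBCK1 #1 ran from -0.02 to 0.17 and included 0. The interval with si-RBCK1 #2 ran from -0.26 to -0.06. Set beside p27, the *CDKN1A* level was 27.1 times that of *CDKN1B* with si-RBCK1 #1. With si-RBCK1 #2 it was 37.4 times as listed and 18.5 times with the whole-read value.

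*CDKN1C* was lower with both siRNAs, and far lower with si-RBCK1 #1. The gene, which encodes p57 and is imprinted and expressed from the maternal allele, maps to chr11:2904448-2906995 (minus strand). The control library held 725 reads of it (10.2 RPKM), against 130 after si-RBCK1 #1 (1.67 RPKM) and 353 after si-RBCK1 #2 (5.03 RPKM). It thus stood at 16.4% and 49.5% of the control level. The log2 ratios were -2.07 and -0.89, at percentiles 0.153 and 3.35. The second lies just inside the 2-fold limit on this scale and just past it without a pseudocount. On reads they were -2.61 (interval -2.89 to -2.34) and -1.02 (interval -1.20 to -0.83). Between the siRNAs, the level with si-RBCK1 #2 was higher by a log2 ratio of 1.60 on reads (interval 1.30 to 1.90). In bulk RNA, fewer cells that express a gene and less RNA per cell cannot be told apart.

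The chromosomal neighbours of *CDKN1C* did not share one direction. *SLC22A18*, an imprinted transporter gene on chromosome 11 from 2920951 to 2946476, was at 13.1, 5.53 and 9.32 RPKM in the order si-Control, si-RBCK1 #1 and si-RBCK1 #2. It had log2 ratios of -1.11 and -0.45, and like *CDKN1C* it was lowest with si-RBCK1 #1. *PHLDA2*, an imprinted growth regulator of the same cluster, was at 30.7, 38.3 and 58.3 RPKM, with log2 ratios of 0.31 and 0.91. *NAP1L4*, a histone chaperone gene further along, had log2 ratios of 0.63 and 0.57. *KCNQ1OT1*, the long noncoding RNA that silences the cluster on the paternal allele, was at most 0.131 RPKM.

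*CDKN2C* was the INK4 gene with the clearest difference, and it was higher with both siRNAs. It maps to chr1:51434367-51440309 (plus strand). The control library held 300 reads of it (3.28 RPKM), against 616 after si-RBCK1 #1 (6.15 RPKM) and 739 after si-RBCK1 #2 (8.21 RPKM). These are 1.87 and 2.50 times the control level. The log2 ratios were 0.74 and 1.11, at percentiles 93.0 and 98.3. The intervals on reads ran from 0.71 to 1.11 and from 1.13 to 1.52. In contrast to *CDKN1A* by its whole-read value, *CDKN2C* was higher with si-RBCK1 #2 than with #1 (log2 ratio 0.42 on reads, interval 0.26 to 0.57).

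*CDKN2D*, which encodes p19 of the INK4 family (not the ARF product of *CDKN2A*), had a small difference. It maps to chr19:10677138-10679655 (minus strand). The control library held 74 reads of it (1.41 RPKM), against 104 after si-RBCK1 #1 (1.81 RPKM) and 105 after si-RBCK1 #2 (2.03 RPKM). Log2 ratios were 0.22 and 0.33. The interval on reads with si-RBCK1 #1 ran from -0.08 to 0.81 and included 0, and that with si-RBCK1 #2 ran from 0.08 to 0.98. With si-RBCK1 #1, *CDKN2D* and *CDKN1C* could not be ordered, since the counting interval of *CDKN2D* (1.48 to 2.19 RPKM) overlapped that of *CDKN1C* (1.39 to 1.98 RPKM).

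**Figure D2:**
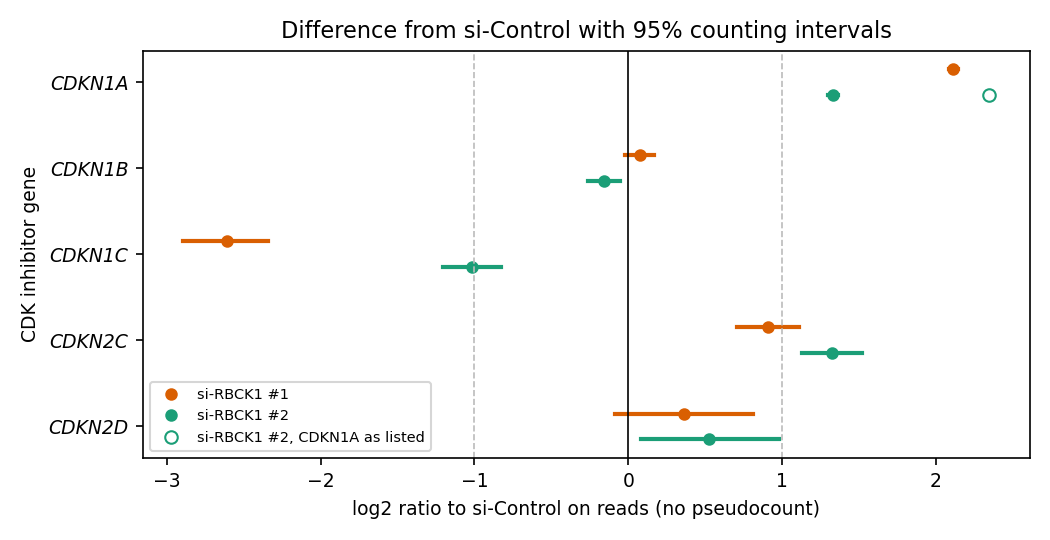
The log2 ratio to si-Control on reads, without a pseudocount, is plotted for the 5 expressed genes with si-RBCK1 #1 (orange) and si-RBCK1 #2 (green), with 95% exact Clopper-Pearson intervals as bars and dashed lines at 2-fold. The open circle is *CDKN1A* as listed, and *CDKN1C* lies left of 0 with both siRNAs while *CDKN1A* and *CDKN2C* lie right of it.

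*CDKN2A* and *CDKN2B*, the INK4 pair on chromosome 9, were at or near 0 in every library. *CDKN2A*, whose alternative first exons lead to p16 and to ARF, lies from 21967751 to 21994490 on the minus strand. It was at 0.013, 0.0238 and 0.0265 RPKM in the order si-Control, si-RBCK1 #1 and si-RBCK1 #2. These values correspond to 1, 2 and 2 reads, all under the limit of 3 reads that a count of 0 allows in a library, so no ratio is given. *CDKN2B*, from 22002902 to 22009312, had 0 reads in the 3 libraries, and 0 of 36926834 reads with si-Control allows up to 3 reads. Expression of *CDKN2A* and *CDKN2B* was therefore not detectable above this limit, and p16 and ARF transcripts could not be separated in gene-level values.

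Genes on both sides of this pair were expressed, while the antisense RNAs within it were not detected. *CDKN2B-AS1* (ANRIL, the antisense RNA that runs through *CDKN2B*) and *CDKN2A-AS1* were both listed at 0 in the 3 libraries. *MTAP*, the methionine salvage enzyme gene that ends at base 21865970 on one side, was at 16.7, 17.7 and 18.0 RPKM, log2 ratios of 0.08 and 0.10. *DMRTA1*, which begins at base 22446840 on the other side, was at 5.02, 6.47 and 5.43 RPKM. *KLHL9*, a ubiquitin ligase adaptor further out, was at 9.71, 8.64 and 8.76 RPKM. Of 8 neighbours in the table, 5 passed the filter, with log2 ratios from -0.42 to 0.31 with si-RBCK1 #1 and from -0.13 to 0.16 with si-RBCK1 #2.

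Read by fold alone and as listed, 1 of the 5 tested CDK inhibitor genes was at least 2-fold higher with si-RBCK1 #1 (*CDKN1A*), where 2.91% of all 12403 genes tested were. With the same siRNA, 1 of 5 was at least 2-fold lower (*CDKN1C*), against 3.27% of all genes. With si-RBCK1 #2, 2 of 5 were at least 2-fold higher (*CDKN1A* and *CDKN2C*), against 2.50% of all genes, and 0 of 5 were at least 2-fold lower, against 2.27%. With a pseudocount of 0.1 RPKM, *CDKN1C* also passed the limit with si-RBCK1 #2. The whole-read value of *CDKN1A* left these counts as they are. The other 2 genes of the 7 did not reach the filter. The median log2 ratio of the 5 was 0.22 with si-RBCK1 #1 and 0.33 with si-RBCK1 #2, and over all genes tested it was 0.02 and 0.03. Of all genes tested, 51.5% were higher than si-Control with si-RBCK1 #1 and 53.5% with si-RBCK1 #2.

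The start regions of *CDKN1A* and *CDKN2C*, the genes at least 2-fold higher with si-RBCK1 #2, are printed here, from RefSeq on GRCh38.p14, with 250 bases before and 50 after the start. GC boxes (GGGCGG) and E2F sites (TTCCCGC or TTGGCGC or TTCGCGC or TTGCCGC) are in capitals, searched on both strands, and matches may overlap. The *CDKN1A* window, chr6:36678464-36678763 on the plus strand, held 4 GC boxes and no E2F site.
CDKN1A: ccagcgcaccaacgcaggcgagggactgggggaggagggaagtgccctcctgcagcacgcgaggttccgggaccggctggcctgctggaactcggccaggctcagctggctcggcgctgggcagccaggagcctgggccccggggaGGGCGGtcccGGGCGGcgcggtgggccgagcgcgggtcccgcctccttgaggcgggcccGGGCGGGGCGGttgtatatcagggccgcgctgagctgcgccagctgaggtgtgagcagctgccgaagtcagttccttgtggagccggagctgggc
For *CDKN2C*, 1 of its 3 start sites, chr1:50968456-50968755 on the plus strand, held 6 GC boxes and 2 E2F sites.
CDKN2C: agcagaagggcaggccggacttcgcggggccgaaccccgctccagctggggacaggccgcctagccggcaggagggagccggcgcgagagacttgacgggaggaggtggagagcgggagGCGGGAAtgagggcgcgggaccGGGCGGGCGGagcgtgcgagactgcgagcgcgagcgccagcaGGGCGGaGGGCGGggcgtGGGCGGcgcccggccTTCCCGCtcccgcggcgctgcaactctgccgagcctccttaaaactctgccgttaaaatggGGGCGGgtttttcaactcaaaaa

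Promoter windows were found for 6 of the 7 genes, 9 windows in all, and *CDKN1C* had none in this set. A GC box occurred in 7 of the 9, and in 45.0% of all 35116 windows. An E2F site occurred in 1 of the 9, and in 13.0% of all windows. The E-box CACGTG was found in 2 of the 9 (7.26% of all), both at other start sites of *CDKN2C*, the TATA box TATAAA in 0 of 9 (11.5%), and the decamer bound by p53 in 0 of 9 (6.63%). These are matches of letters in a short window, and no binding was measured. Bases outside the window were not searched, so any p53 site further from the start of *CDKN1A* or another gene could not be found.

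Among the G1 kinases and cyclins that the inhibitors act on, the tested G1 cyclin genes were higher and *CDK4* and *CDK6*, the kinase partners of INK4 proteins, were lower. Of 8 G1 cyclins and CDKs, 7 were tested. With si-RBCK1 #1, 5 were higher and 2 lower than si-Control (median log2 ratio 0.97), and with si-RBCK1 #2 the counts were the same (median 0.69), against 51.5% and 53.5% of all genes higher. Cyclin E2 (*CCNE2*), a CDK2 partner, was at 2.59 RPKM with si-Control and had log2 ratios of 1.46 and 1.61. Cyclin D3 (*CCND3*) had log2 ratios of 0.97 and 1.15. *CCND1* is listed at 39.2, 98.5 and 88.9 RPKM, but its listed values do not give the fold change of its own row, and without it the medians were 0.66 and 0.41. *CDK6*, a target of the INK4 proteins, was at 25.9, 8.04 and 18.7 RPKM. Its log2 ratios of -1.57 and -0.45 place the lower level with si-RBCK1 #1, the library in which *CDKN1C* was also lowest. *CDK4* was at 114, 92.7 and 88.9 RPKM, log2 ratios of -0.30 and -0.36. *CDK2*, the main kinase bound by p21 and p27, had log2 ratios of 0.35 and 0.13.

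Further down the pathway, *RB1* was at 22.5, 15.9 and 16.8 RPKM, log2 ratios of -0.48 and -0.40, and the median of the 3 pocket protein genes was 0.14 with each siRNA. *E2F1*, an activator of S phase genes, was at 7.83, 20.2 and 18.6 RPKM, log2 ratios of 1.26 and 1.15. Of the 9 E2F and DP factors tested, 6 were higher with each siRNA, against 51.5% and 53.5% of all genes. Their medians were 0.40 and 0.02, against 0.02 and 0.03 over all genes. The second median of the factors turned negative under other scalings of the libraries. Of 18 genes known to be activated by E2F at G1/S, 17 were tested and 17 were higher with each siRNA (medians 1.32 and 1.31), against 51.5% and 53.5% of all genes. At least 2-fold higher were 13 and 11 of the 17, against 2.91% and 2.50% of all genes. *TYMS*, 1 of those at least 2-fold higher with both, is listed with values that do not give its own fold change, and without it the medians were 1.34 and 1.29. They include *PCNA*, the replication clamp that p21 protein binds, at 27.2, 93.3 and 79.4 RPKM. They also include *RRM2*, a ribonucleotide reductase subunit, with log2 ratios of 2.27 and 1.92. *CCNE1*, *CCNE2* and *E2F1* stand in this list and in an earlier one.

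The 12 genes listed as repressed through p21 and the DREAM complex, most of which act in G2 and mitosis, showed no common direction. Of 12 tested, 6 were higher with si-RBCK1 #1 and 7 with si-RBCK1 #2 (medians 0.02 and 0.10), against 51.5% and 53.5% of all genes. None differed by 2-fold in either direction, which is also rare over all genes. Of these, 2.91% and 2.50% were at least 2-fold higher with si-RBCK1 #1 and #2, and 3.27% and 2.27% at least 2-fold lower. The first median turned negative when libraries were scaled to equal totals. Cyclin B2 (*CCNB2*) had log2 ratios of -0.86 and -0.86, and survivin (*BIRC5*) had 0.67 and 0.66. S and G2/M cyclins with *CDK1*, which overlap this list, had medians of 0.02 and -0.09 over 4 genes, and the first of these also turned negative under equal totals.

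Of 17 genes known to be activated by p53, 15 were higher with si-RBCK1 #1 and 14 with si-RBCK1 #2 (medians 1.00 and 0.94), against 51.5% and 53.5% of all genes. Listed values of *BTG2*, *TP53INP1* and *TP53I3* do not give their own fold change, and without these 3 the medians were 0.67 and 0.91. *FDXR*, a mitochondrial p53 target, had log2 ratios of 1.82 and 1.55, and *SESN1*, a stress sensor, had 1.65 and 1.25. *GADD45A*, a growth arrest gene, was lower with both, at 369, 156 and 119 RPKM.

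Of 11 genes for the turnover of p21 and p27 protein, 9 and 8 were above si-Control (medians 0.35 and 0.30), against 51.5% and 53.5% of all genes. *DTL*, a substrate receptor that targets p21 for degradation, was at 9.22, 24.2 and 26.3 RPKM, log2 ratios of 1.30 and 1.42. *SKP2*, which targets p27, was at 2.29, 5.51 and 6.07 RPKM, log2 ratios of 0.99 and 1.10. The transcript data do not measure the p21 or p27 protein.

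**Figure D3:**
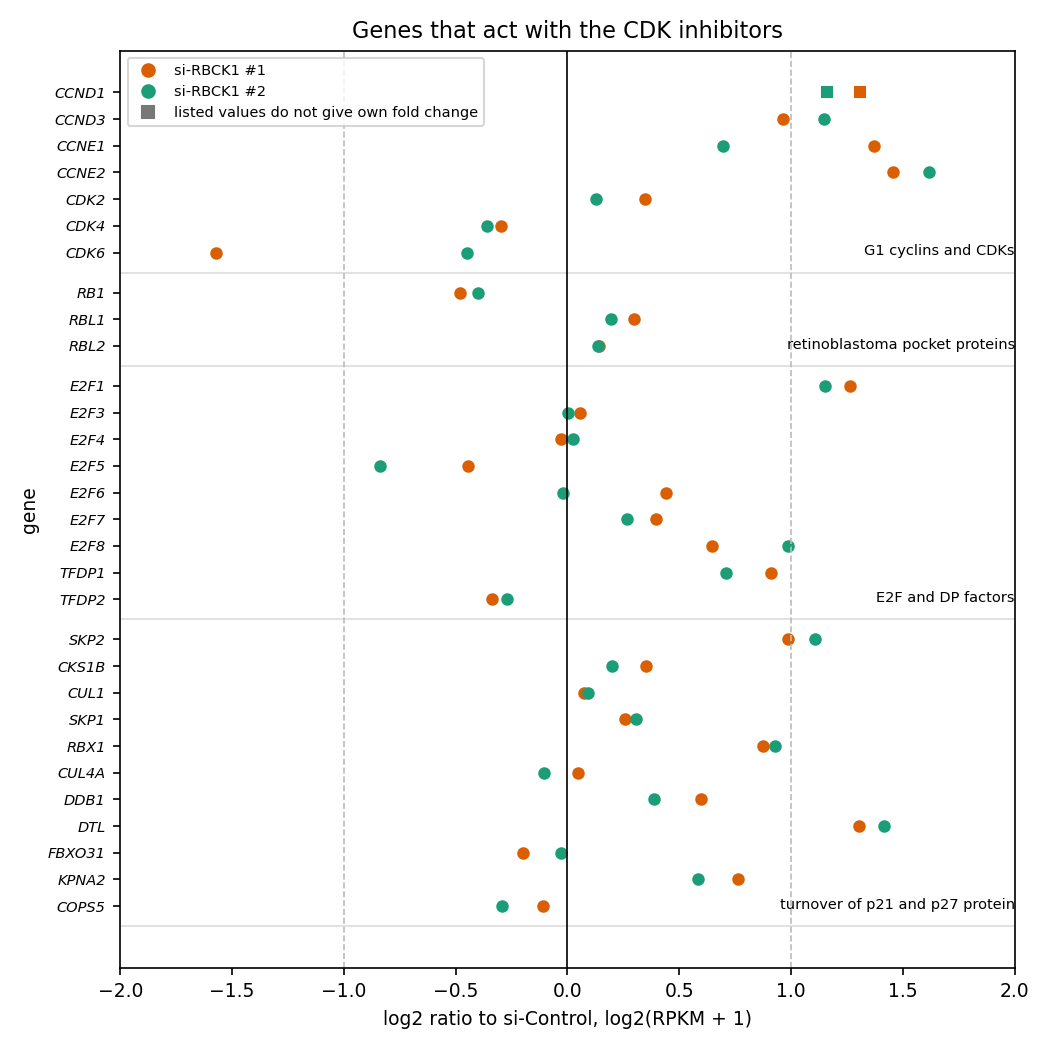
The log2 ratio to si-Control, on the log2(RPKM + 1) scale, is plotted for tested genes of 4 lists with si-RBCK1 #1 (orange) and si-RBCK1 #2 (green), with squares for *CCND1*, whose listed values do not give its own fold change, and dashed lines at 2-fold. *CCNE2*, *E2F1* and *DTL* lie beyond the right line with both siRNAs, and *CDK6* lies beyond the left line with si-RBCK1 #1 (-1.57).

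Among regulators of INK4 transcription, 14 of 17 genes were tested, with medians of 0.07 and -0.07. Of the 14, 9 were higher with si-RBCK1 #1 and 6 with si-RBCK1 #2, against 51.5% and 53.5% of all genes. *ID1*, which opposes activation of *CDKN2A* by ETS factors, was at 23.9, 64.0 and 62.0 RPKM, log2 ratios of 1.38 and 1.34. *ETS1*, such a factor, was at 103, 53.6 and 46.6 RPKM, log2 ratios of -0.93 and -1.13. *EZH2*, the Polycomb methyltransferase that represses the INK4 locus, had log2 ratios of 0.74 and 0.79. Other Polycomb genes of the list did not share one direction, with *RNF2* at -0.25 and -0.43 and *EED* at 0.62 and 0.54. FOXO factors and other activators of CIP/KIP genes were near si-Control, with 7 tested and log2 ratios from -0.40 to 0.25 with si-RBCK1 #1 and from -0.50 to 0.13 with si-RBCK1 #2 (medians -0.14 and -0.16). Of 5 genes with related names that are not members of either family, *CDKN3*, a phosphatase that acts on CDKs, had log2 ratios of -0.29 and -1.13, and *CDK2AP1*, which binds CDK2, had 0.82 and 0.95. The median of the 5 was -0.24 with si-RBCK1 #1 and -0.29 with si-RBCK1 #2.

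On the log2(RPKM + 1) scale, *CDKN1A* was the CDK inhibitor gene at least 2-fold from si-Control in both libraries (*CDKN1C* was too without a pseudocount), and the protein-coding genes nearest to it were sought by the distance between their pairs of log2 ratios. The pairs rest on 3 libraries. As listed, the nearest 5 were *SRRT*, *TUBB3*, *RRM2*, *SDF2L1* and *SAC3D1*, at distances of 0.41 to 0.49. With the whole-read value they included *C4orf26*, *TMEM97*, *FDXR* and *PCNA*, at distances of 0.29 to 0.41, and 0 of the 5 were shared.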

How the data were processed

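Caki-1 RNA, taken 48 h after siRNA transfection, was sequenced as 1 library for each of 3 conditions. The authors deposited RPKM values per gene and library, together with a mean column, a log2 fold change, p-values and q-values of their own comparison. The mean and the log2 fold change were used only to check whether a row's listed values give them (tolerance 1e-06), and the p-values and q-values were not used. The submitters' processing notes name FastQC, Trimmomatic, TopHat2, HTSeq and hg19, with no role or order. The gene annotation and the strand setting are not given in the sources used here.

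Genes that averaged 1 RPKM or more were compared by fold (2-fold) on log2(RPKM + 1), with no p-value, since each condition had 1 library. 1 entry of the table is not a number, and its gene was left out. Library totals were read from RNAs of up to 200 nt, and the smallest length up to 50000 nt that gave whole reads (within 0.001) was taken. Intervals (95%, exact Poisson for levels and Clopper-Pearson for ratios) cover counting error only. The 7 genes and all lists, which were written from general knowledge, were chosen with earlier results of these data known. Genes named are *RBCK1*, the 7 genes, list genes at least 2-fold changed in both libraries or bearing on a CDK inhibitor gene, and the 5 nearest genes by pattern. Some genes are not reported here and were left out of the lists. The steps were tested on simulated data that held counting noise only, so replicate error was not covered. There 200 genes were made to differ alike with both siRNAs, by a log2 ratio of 2 up or down. Of these 90% were called, and 0 of the unchanged genes. Smaller differences, nearer to the 2-fold limit, were not simulated. Alternatives were other pseudocounts, scalings, filters and fold limits, and other values for the *CDKN1A* cell. Computation used scipy 1.17.1 with numpy 2.4.6 and pandas 2.3.3 under Python 3.11.15, and plots were drawn with matplotlib 3.10.9.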

Additional observations from a re-analysis of the deposited data

Results flagged for a closer look

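*CDKN1B* had log2 ratios of opposite sign with the siRNAs, 0.0703 for si-RBCK1 #1 and -0.149 for si-RBCK1 #2. It drew attention because the single library of each siRNA lay on another side of si-Control, and the difference between the siRNAs was not tested against replicates. On reads, the level with si-RBCK1 #2 was below that with si-RBCK1 #1 by a log2 ratio of -0.23 (counting interval -0.33 to -0.13).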

How the results depend on the processing

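The whole-read value of *CDKN1A* and the lists without genes that fail their own row were alternatives added once the data had been seen, that is, chosen after seeing them. No paired analysis was possible because no condition had more than 1 library. Of 60 log2 ratios of CDK inhibitor genes under the alternatives, 48 differed from the reported value by no more than the reach of the counting interval to either side (taken as equal on both), 12 by more, and 0 changed sign. The 48 include all ratios under other filters, which could not differ, since a filter removes genes and leaves the ratios of the rest unchanged. The *CDKN1A* ratio with si-RBCK1 #2 ran from 1.32 to 2.39, that of *CDKN1C* with si-RBCK1 #1 from -2.54 to -1.19, and that of *CDKN2C* with si-RBCK1 #2 from 0.67 to 1.30. The count of CDK inhibitor genes at least 2-fold from si-Control with si-RBCK1 #2 was 2 as reported and became 1 with a pseudocount of 5 RPKM and 1 at a 4-fold limit, but 3 with a pseudocount of 0.1 RPKM, where *CDKN1C* passed 2-fold, and 3 at a 1.5-fold limit. With libraries scaled to equal totals, the median of S and G2/M cyclins with si-RBCK1 #1 became -0.035, that of genes repressed through p21 became -0.038, and that of E2F and DP factors with si-RBCK1 #2 became -0.0084 (-0.026 with equal medians). With no filter, the S and G2/M median with si-RBCK1 #1 became -0.058. With a mean of at least 5 RPKM, the medians of pocket proteins became -0.17 and -0.13, and that of FOXO and other activators with si-RBCK1 #1 became 0.11, since fewer genes were then left. The median of genes activated by E2F with si-RBCK1 #1 became 1.06 with a pseudocount of 5 RPKM. Apart from filters, the cause was not tested. Few reads limit what can be said of *CDKN2A*, *CDKN2B* and, to a lesser degree, *CDKN2D*, and the reason for the low counts was not tested.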
